A study of Homo sapiens with 10 samples.

Results

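Expression of 7 genes that set the balance of pericellular proteolysis was followed in 2 breast cancer cell lines after transfection of a duplex against Che-1, the protein encoded by AATF. The genes were PLAUR, PLAU, PLAT, SERPINE2, TIMP1, TIMP2 and TIMP3. They were chosen by function, with earlier results of these data known. Each was matched by gene symbol to the probe sets of the array, and the probe set with the highest mean value was taken (for example 8037374 for PLAUR). All 7 had a probe set, out of 18417 genes with one, and 6 of the 7 passed the filter on dim genes and were tested among 12892 genes. SERPINE2 did not pass the filter and is described by its values and by a fit without the filter.

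The arrays came from SKBR3, which carries high ERBB2, and MDA-468, which is basal-like and rich in EGFR. The labels describe both as breast cancer cells with mutant p53. Cells were transfected transiently with siControl or siChe-1 duplexes, and RNA was taken 48 h later from 2 samples of each transfection in SKBR3 and from 3 of each in MDA-468. The labels name 1 duplex against Che-1, so a response to loss of AATF and a response to the duplex itself cannot be told apart. Nothing in them says whether replicates were independent cultures, and the p-values reflect the spread among the arrays at hand, and that spread may be technical.

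Plasminogen is a circulating zymogen that is cleaved to the broad protease plasmin by the urokinase-type activator (PLAU) or the tissue-type activator (PLAT). The urokinase receptor (PLAUR, uPAR) holds PLAU at the cell surface, and protease nexin 1 (SERPINE2) inhibits thrombin and both activators. Plasmin degrades fibrin and matrix and can activate matrix metalloproteinases, which the tissue inhibitors of metalloproteinases (TIMP1, TIMP2 and TIMP3) block. TIMP2 also takes part in the activation of MMP2 at the cell surface, and TIMP3 is bound to the matrix and inhibits ADAM proteases as well.

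The promoter sequences of the 2 genes with the largest rise and the largest fall in the set, PLAUR and TIMP1, are given for reference. Each is the 250 bases before the annotated start, 5′ to 3′ on the gene's own strand, from RefSeq on GRCh38.p14. The PLAUR window lies at chr19:43670170-43670419 on the minus strand and the TIMP1 window at chrX:47582186-47582435 on the plus strand. Capitals mark matches to the AP-1 motif TGANTCA, which reads the same on both strands.
PLAUR: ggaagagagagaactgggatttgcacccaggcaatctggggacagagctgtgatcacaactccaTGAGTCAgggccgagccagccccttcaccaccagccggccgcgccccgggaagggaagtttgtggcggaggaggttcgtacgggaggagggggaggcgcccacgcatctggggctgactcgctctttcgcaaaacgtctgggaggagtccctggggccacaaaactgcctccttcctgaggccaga
TIMP1: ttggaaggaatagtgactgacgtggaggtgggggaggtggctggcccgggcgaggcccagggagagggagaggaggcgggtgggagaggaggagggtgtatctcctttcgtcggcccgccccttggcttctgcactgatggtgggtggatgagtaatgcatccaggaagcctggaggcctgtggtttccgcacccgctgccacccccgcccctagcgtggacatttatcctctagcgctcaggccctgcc
The PLAUR window held 1 AP-1 match, from 186 to 180 bases before the start, and the TIMP1 window held 0. Of 35116 annotated promoter windows of the same length, 6.57% held this motif. RefSeq windows were found for 5 of the 7 genes, 7 windows in all, and no other window of the set held an AP-1 match. The kappaB consensus and the interferon-stimulated response element, searched on both strands, had 0 matches in these windows, against 9.96% and 3.02% of all windows. A match is only a run of letters, and its absence says only that these letters are not in the window.

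AATF, the targeted gene, fell in both lines: by 0.66 on the log2 scale in SKBR3 and by 1.71 in MDA-468 (limma adjusted p = 0.000778 and 2.16e-08). All 9 measured genes of an interferon response list rose in each line, with a median log2 fold change of 6.81 in SKBR3 and 5.30 in MDA-468. Replicate arrays correlated with r from 0.978 in SKBR3 siChe-1 to 0.996 in MDA-468 siControl over the genes tested. Array medians were 6.36 to 6.45 in SKBR3 and 6.87 to 6.94 in MDA-468, so levels of the lines were not on 1 scale and the tests compare changes within a line.

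Markers of the lines and of other cell types shifted with siChe-1 in MDA-468, and those of some lists also in SKBR3. For comparison, 43.5% of all tested genes were called in MDA-468 and 23.7% in SKBR3. Of 6 epithelial markers, 1 rose and 3 fell in MDA-468, with changes of -0.41 for CLDN4 and 0.21 for KRT18, and 0 of 6 were called in SKBR3. With no filter on dim genes 0 rose and 2 fell in MDA-468. Of 6 luminal markers 1 rose and 3 fell in MDA-468, with changes of -1.67 for SPDEF and -0.73 for FOXA1, and all 3 basal-like markers measured rose, KRT14 by 1.95, KRT5 by 0.82 and EGFR by 0.72. In SKBR3 0 of the luminal markers and 1 of the basal-like markers (EGFR) were called, and EGFR lost its call with no filter (limma adjusted p = 0.0864). CDH1 was the only epithelial marker below the filter level of 6.03, in SKBR3. Of 6 fibroblast markers DCN, LUM and PDGFRB were below that level in all 4 groups and COL3A1 in SKBR3, while COL1A1 and COL1A2 were above it throughout. Of 5 endothelial markers all but KDR in MDA-468 were below it. Of 5 leukocyte markers PTPRC, CD3E and LYZ were below it in all 4 groups, and CD14 and ITGAM in SKBR3. Summed log2 levels in MDA-468 were 32.2 to 32.9 with siControl and 33.1 to 33.9 with siChe-1 for fibroblast markers, and 27.1 to 27.7 and 28.4 to 29.2 for endothelial markers. In SKBR3 the ranges overlapped, at 30.7 to 31.5 and 30.7 to 32.0 for fibroblast markers and 23.5 to 24.8 and 23.0 to 24.7 for endothelial markers. They did not overlap in SKBR3 for basal-like markers, at 22.9 to 23.1 with siControl and 23.6 to 24.2 with siChe-1. The same held for epithelial markers, at 63.4 to 63.6 and 63.1 to 63.2. The part of these shifts in the changes described next was not tested.

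PLAUR rose in both lines and was the only gene of the set to do so. PLAT, PLAU and TIMP2 rose and TIMP1 fell in MDA-468, where 5 of the 6 tested genes passed an adjusted p of 0.05. In SKBR3 1 of 6 did. For comparison, SKBR3 had 23.7% of all tested genes called (6.64% higher) and MDA-468 had 43.5% (16.4% higher and 27% lower), and 4.85% were called higher in each line. Without the filter on dim genes the counts were 1 of 7 in SKBR3 and 5 of 7 in MDA-468, against 14.5% and 31.5% of all genes. The count in SKBR3 is thus near the background. The set was chosen with earlier results of these data known, so the count in MDA-468 carries no independent weight. In bulk RNA, a change in the number of expressing cells and a change in RNA per cell cannot be told apart.

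**Figure D1:**
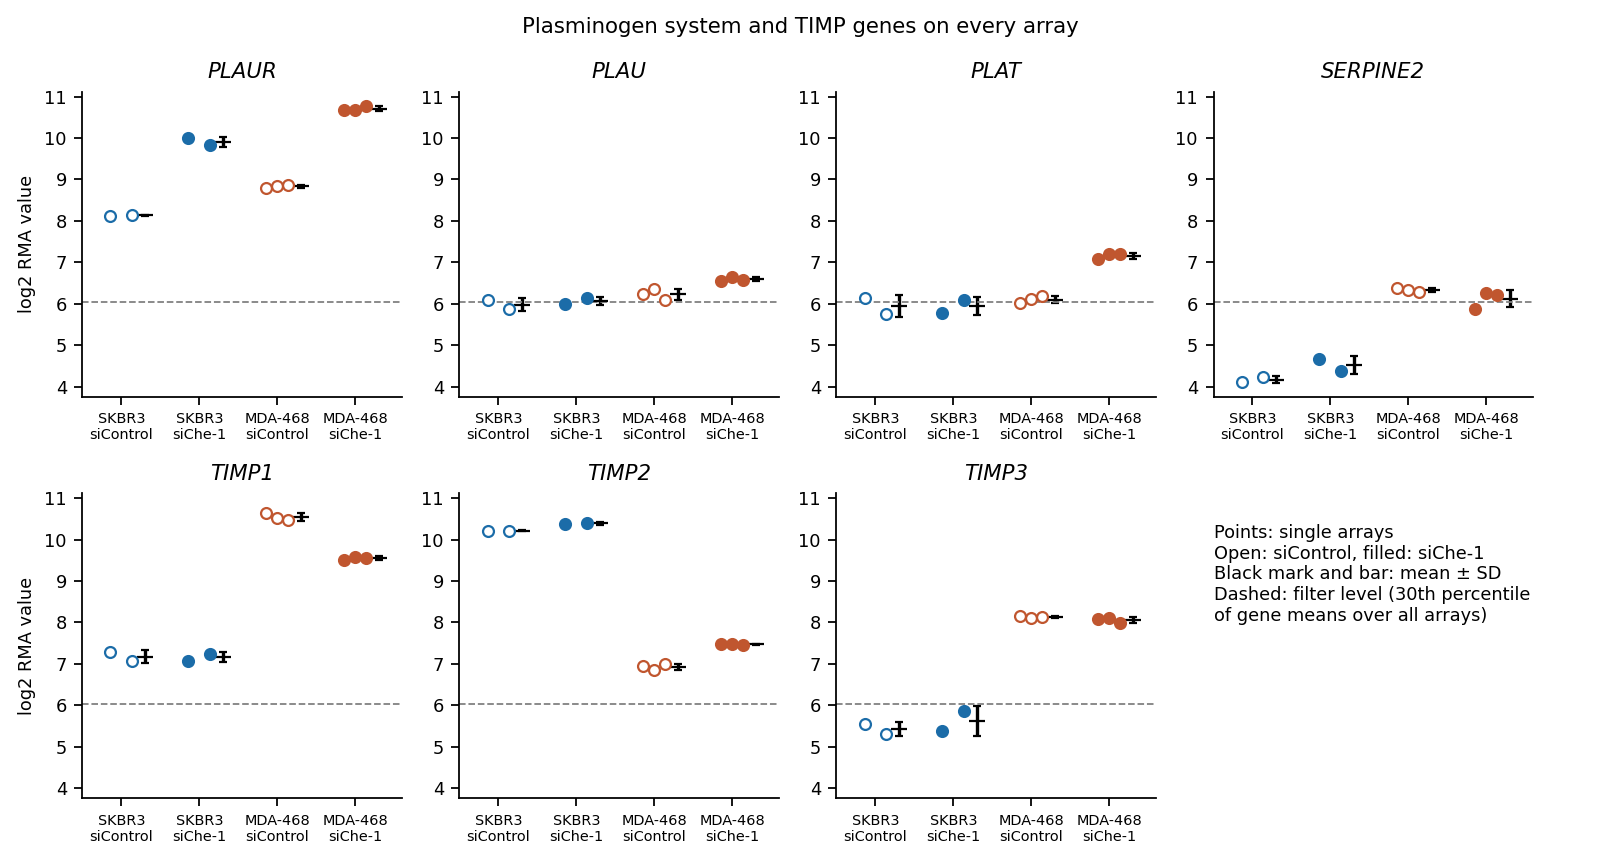
Log2 RMA values of the 7 genes on every array (y axis) by line and transfection (x axis); points are single arrays, open for siControl and filled for siChe-1, black marks and bars are means ± SD, and the dashed line is the filter level of 6.03. PLAUR was higher on every siChe-1 array of both lines, whereas TIMP1 was lower and PLAT higher with siChe-1 in MDA-468 alone.

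PLAUR, the urokinase receptor, stood at 8.12 and 8.14 on the SKBR3 siControl arrays and at 10.00 and 9.82 on the siChe-1 arrays (log2 values). In MDA-468 it read 8.80, 8.84 and 8.86 with siControl and 10.68, 10.67 and 10.78 with siChe-1. The groups did not overlap in either line, and the gap between the nearest arrays was 1.68 in SKBR3 and 1.81 in MDA-468. The log2 fold change was 1.78 ± 0.09 (SE) in SKBR3 (n = 2 and 2), or 3.44-fold, with a limma adjusted p = 1.08e-07. It was 1.88 ± 0.08 (SE) in MDA-468 (n = 3 and 3), or 3.67-fold, with a limma adjusted p = 7.5e-09. PLAUR ranked 142 from the top of 12892 fold changes in SKBR3 and 152 in MDA-468. The change differed between the lines by -0.10 (95% interval -0.36 to 0.17, limma adjusted p = 0.65), so a difference of more than 0.36 in size lies outside the interval. The group means rose in order from SKBR3 controls over MDA-468 controls to siChe-1 in SKBR3 and then in MDA-468. No neighbouring groups overlapped, although the step between lines is not on 1 scale.

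Over the 10 arrays, after subtraction of each line's mean, the genes whose pattern was most like that of PLAUR were IFI6 (Pearson's r = 0.999), PPM1K (0.999) and CCL5 (0.998). IFI6 is an interferon-induced protein, PPM1K a mitochondrial phosphatase and CCL5 a chemokine. These r values describe arrays that share the siChe-1 contrast, and 71 genes had an r above 0.99.

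PLAU, the ligand of that receptor, was close to the filter level in every group. Its SKBR3 values were 6.09 and 5.86 with siControl and 6.00 and 6.13 with siChe-1, which overlap. In MDA-468 they were 6.23, 6.36 and 6.10 with siControl and 6.55, 6.66 and 6.58 with siChe-1, which do not. The rise in MDA-468 was 0.37 ± 0.09 (SE), or 1.29-fold (limma adjusted p = 0.00793), and the SKBR3 value was 0.09 with a 95% interval of -0.16 to 0.34 (limma adjusted p = 0.638). The difference between the lines, -0.28 with a 95% interval of -0.60 to 0.05, did not pass the test (limma adjusted p = 0.228).

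PLAT, the tissue-type activator, rose in MDA-468 by 1.06 ± 0.11 (SE), or 2.08-fold (limma adjusted p = 2.16e-05). Its MDA-468 values were 6.02, 6.10 and 6.18 with siControl and 7.08, 7.20 and 7.20 with siChe-1. The lowest siChe-1 array stood 0.90 above the highest siControl array. In SKBR3 PLAT read 6.13 and 5.76 with siControl and 5.79 and 6.10 with siChe-1. Both SKBR3 means were 5.95, with SDs of 0.26 and 0.22, and the 95% interval of the change was -0.30 to 0.30. The lines differed by -1.06 ± 0.18 (SKBR3 less MDA-468, SE; limma adjusted p = 0.00217). PLAT passed the filter through its MDA-468 siChe-1 values, since its mean over the other arrays was 6.01. With no filter its MDA-468 rise had a limma adjusted p = 3e-05 and its difference between lines one of 0.00309. Both SKBR3 means lay below the filter level.

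SERPINE2, the inhibitor of both activators, was dim in SKBR3, at 4.12 and 4.23 with siControl and at 4.68 and 4.37 with siChe-1. In MDA-468 it read 6.39, 6.34 and 6.28 with siControl and 5.88, 6.25 and 6.22 with siChe-1. With siChe-1 the arrays read higher in SKBR3, whereas those of MDA-468 read lower, and the groups did not overlap in either line, by margins of 0.15 and 0.02. With no filter the change was 0.35 in SKBR3 (95% interval 0.04 to 0.66, limma adjusted p = 0.128) and -0.22 in MDA-468 (95% interval -0.47 to 0.04, limma adjusted p = 0.196). Neither passed the test, and neither did the difference between the lines, 0.57 (limma adjusted p = 0.0662).

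Of the 7 genes, groups did not overlap for 3 in SKBR3 and 6 in MDA-468; of the 6 tested, for 2 and 5. The same held for 52.3% of all genes tested in SKBR3 and 59.9% in MDA-468.

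**Figure D2:**
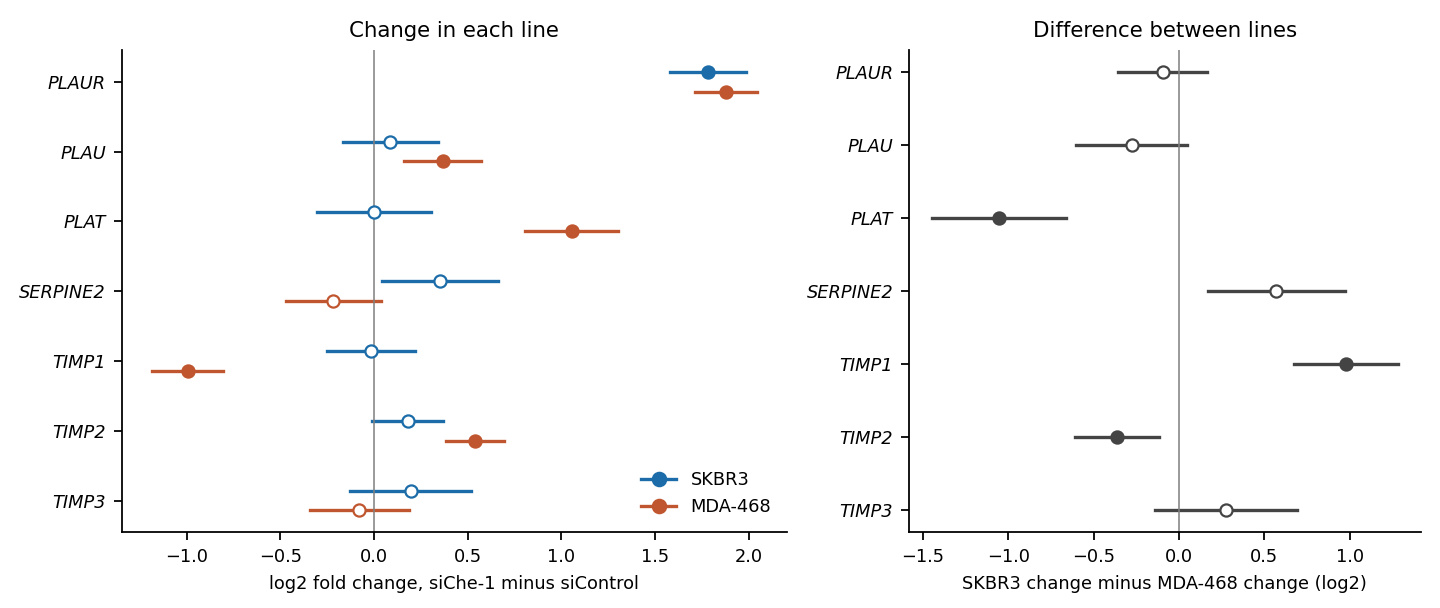
Log2 fold changes of the 7 genes, siChe-1 minus siControl, in each line (left), and the SKBR3 change less that of MDA-468 (right); bars are 95% intervals and filled points passed an adjusted p of 0.05. SERPINE2 is shown from the fit with no filter. The PLAUR intervals of the lines overlap, whereas PLAT and TIMP1 lie near 0 in SKBR3 and at 1.06 and -0.99 in MDA-468.

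Among the metalloproteinase inhibitors, TIMP1 fell to 0.502 times its control value in MDA-468. Its values there were 10.64, 10.51 and 10.48 with siControl and 9.50, 9.58 and 9.56 with siChe-1, and the groups were 0.90 apart at their nearest arrays. The log2 fold change was -0.99 ± 0.09 (SE; limma adjusted p = 4.61e-06), which ranked 256 from the bottom of 12892. In SKBR3 TIMP1 read 7.29 and 7.07 with siControl and 7.08 and 7.25 with siChe-1, and its change of -0.02 had a 95% interval of -0.25 to 0.22. The lines differed by 0.98 ± 0.14 (SE; limma adjusted p = 0.000716), against 19.2% of all genes called for such a difference.

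TIMP2 rose in MDA-468, from 6.94, 6.85 and 7.0 with siControl to 7.48, 7.47 and 7.45 with siChe-1. This was a log2 fold change of 0.54 ± 0.07 (SE), or 1.45-fold, with a limma adjusted p = 9.72e-05. In SKBR3, where TIMP2 was bright, it read 10.22 and 10.20 with siControl and 10.37 and 10.41 with siChe-1. These groups did not overlap either, but the change of 0.18 (95% interval -0.01 to 0.37) did not pass the test (limma adjusted p = 0.162). The difference between the lines, -0.36 ± 0.11 (SE), had a limma adjusted p = 0.0444, and it stayed past the threshold under 4 of 18 alternatives, with adjusted p from 0.0261 to 0.153. TIMP1 and TIMP2 therefore went opposite ways in MDA-468, each with groups that did not overlap.

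TIMP3 did not pass the test in either line. In MDA-468 it read 8.17, 8.10 and 8.13 with siControl and 8.08, 8.11 and 7.98 with siChe-1, a change of -0.08 with a 95% interval of -0.34 to 0.19 (limma adjusted p = 0.642). In SKBR3 it lay below the filter level, at 5.55 and 5.30 with siControl and 5.37 and 5.87 with siChe-1. The SKBR3 change of 0.20 (limma adjusted p = 0.378) rested on the siChe-1 replicates, which differed from each other more than the groups did. Without siChe-1 replicate 1 it was 0.44 (limma adjusted p = 0.0123), and without siChe-1 replicate 2 it was -0.05 (limma adjusted p = 0.82). A dimmer TIMP3 probe set changed by 0.08 in SKBR3 and by 0.03 in MDA-468.

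In control-transfected cells TIMP1 read higher in MDA-468 and TIMP2 higher in SKBR3, and both genes were above the filter level in both lines. The siControl mean of TIMP1 was 10.55 ± 0.09 (SD, n = 3) in MDA-468 and 7.18 ± 0.15 (SD, n = 2) in SKBR3, and that of TIMP2 was 6.93 ± 0.08 (SD, n = 3) and 10.21 ± 0.01 (SD, n = 2). The differences, MDA-468 minus SKBR3, were 3.37 for TIMP1, -3.28 for TIMP2, 2.71 for TIMP3 and 2.16 for SERPINE2. After each array was centred on its median they were 2.87, -3.77, 2.21 and 1.67. For PLAUR the difference was 0.70, or 0.21 after centring, and for PLAU (0.25 and -0.24) and PLAT (0.16 and -0.34) centring turned the sign. In order, TIMP1 was lowest in the SKBR3 groups, which overlap, then in MDA-468 siChe-1 and highest in MDA-468 siControl. TIMP2 ran from MDA-468 siControl over MDA-468 siChe-1 to SKBR3 siControl and SKBR3 siChe-1. The fall of TIMP1 in MDA-468 thus left its level there well above that of SKBR3, at 9.55 against 7.16 with siChe-1.

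**Figure D3:**
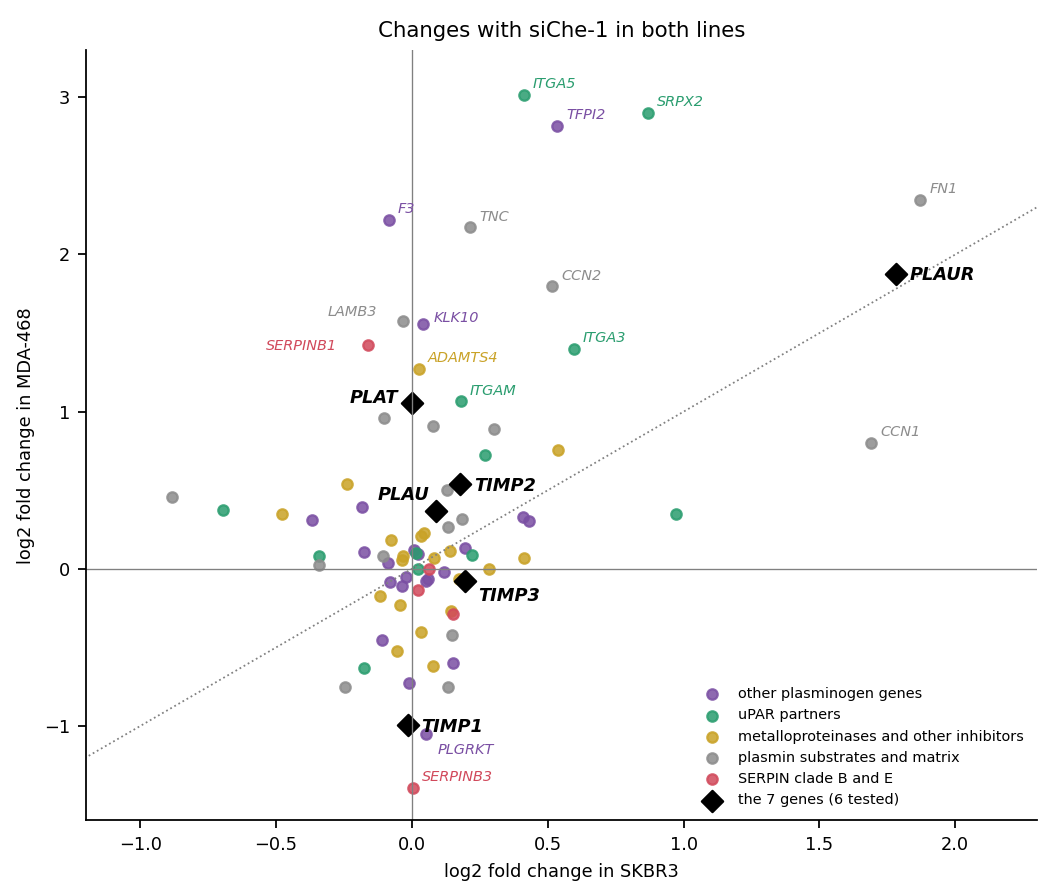
Log2 fold changes in SKBR3 (x axis) and MDA-468 (y axis) for tested genes of 5 related lists (circles) and for the set (black diamonds); the dotted line marks equal change. PLAUR lies near that line, while PLAT, TIMP1 and F3 lie along the MDA-468 axis.

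Other genes of plasmin formation and surface proteolysis were called for 4 of 22 tested in SKBR3 (3 higher, 1 lower) and for 11 of 22 in MDA-468 (7 higher, 4 lower). These shares, 18.2% and 50%, were close to the 23.7% and 43.5% of all genes tested, and the median log2 fold changes were 0.01 and 0.06 against -0.08 and -0.02 for all genes. In MDA-468 TFPI2, an inhibitor of plasmin and other serine proteases, rose by 2.82 ± 0.12 (SE), F3, tissue factor, by 2.22 ± 0.08 and the kallikrein KLK10 by 1.56 ± 0.14. PLGRKT, a plasminogen receptor, changed by -1.05 ± 0.18 (limma adjusted p of the 4 genes from 4.25e-09 to 0.000759). In SKBR3 TFPI2 rose by 0.54 from a dim 4.24, and F3 (-0.08), KLK10 (0.04) and PLGRKT (0.05) did not pass the test. TFPI2 passed the filter through its MDA-468 siChe-1 values, and both its SKBR3 means lay below the filter level. With no filter its rise had a limma adjusted p = 0.0346 in SKBR3 and 1.28e-08 in MDA-468. ANXA2 and S100A10, which form a plasminogen-binding complex, did not pass it in either line, with changes between -0.09 and 0.05. LRP2, of the same list, was left out by the filter and was picked out after its values were seen. It went from 4.75 to 5.95 in SKBR3 and changed by -0.11 in MDA-468 (with no filter, limma adjusted p = 9.43e-06 and 0.356). Of 6 tested serpins on a list of clades B and E, 2 rose and 1 fell in MDA-468, or 50% against 43.5% of all genes. SERPINB1 rose by 1.42 and SERPINB8 by 0.30, and SERPINB3 fell by 1.39. SERPINB3 has a near-identical neighbour, SERPINB4, so its probe set may read both. In SKBR3 SERPINB8 alone of the 6 was called (16.7%, against 23.7% of all genes), with a rise of 0.43. With no filter SERPINB8 lost its call in both lines (limma adjusted p = 0.0516 in SKBR3 and 0.0539 in MDA-468). Of the 10 serpins with a probe set, 1 was then called higher and 2 lower in MDA-468, and 0 were called in SKBR3.

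Of 14 tested receptors, integrins and ligands that partner with uPAR, 5 rose and 1 fell in SKBR3, and 7 rose and 1 fell in MDA-468. That is 42.9% and 57.1% of the list, against 23.7% and 43.5% of all genes, with medians of 0.19 and 0.24. EGFR, counted among the SKBR3 rises, lost its call with no filter (limma adjusted p = 0.0864), which left 4. ITGA5, the alpha chain of the fibronectin receptor, rose by 0.41 in SKBR3 and 3.01 in MDA-468. SRPX2, a secreted ligand of uPAR, rose by 0.87 and 2.90, and ITGA3 by 0.60 and 1.40. ITGAM rose by 1.07 in MDA-468 and read 0.18 in SKBR3 (limma adjusted p = 2.53e-05 and 0.402). It passed the filter through its MDA-468 siChe-1 values, and with no filter its rise there had a limma adjusted p = 3.48e-05. ITGAM is also a marker of myeloid cells. CD14, another leukocyte marker, rose by 0.53 in SKBR3 and by 0.64 in MDA-468. Both genes lay below the filter level in SKBR3, and PTPRC, CD3E and LYZ did so in all 4 groups. Without the filter, 1 of the 5 leukocyte markers measured was called higher in SKBR3. In MDA-468 2 were then called higher and 1 lower. The summed log2 level of the 5 leukocyte markers measured was 27.5 to 28.2 with siControl and 29.2 to 29.9 with siChe-1 in MDA-468, and 22.3 to 22.8 and 23.2 to 24.3 in SKBR3. Its part in these changes was not tested. ITGAV fell by 0.70 in SKBR3 and rose by 0.38 in MDA-468, a difference of -1.07 (limma adjusted p = 0.00145). CAV1 rose more in SKBR3, by 0.97 against 0.35 in MDA-468, a difference of 0.63 (limma adjusted p = 0.00742). ITGB5 changed by -0.63 in MDA-468 and by -0.18 in SKBR3 (limma adjusted p = 9.35e-05 and 0.238).

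Of 21 tested metalloproteinases and further inhibitors, 3 rose and 1 fell in SKBR3, and 6 rose and 4 fell in MDA-468. These shares, 19% and 47.6%, were close to those of all genes (23.7% and 43.5%), with medians of 0.03 and 0.07. ADAMTS4, an aggrecanase that TIMP3 inhibits, rose by 1.27 ± 0.10 (SE) in MDA-468 (limma adjusted p = 2.04e-06) and read 0.03 in SKBR3. MMP7, matrilysin, rose in both lines, by 0.54 from a dim 3.34 in SKBR3 and by 0.76 from 7.89 in MDA-468. Both SKBR3 means of MMP7 lay below the filter level, and it passed through its MDA-468 values. With no filter its rises had a limma adjusted p = 0.0252 in SKBR3 and 0.000322 in MDA-468. RECK, a membrane-anchored inhibitor of metalloproteinases, fell by 0.48 in SKBR3 and rose by 0.35 in MDA-468. Its SKBR3 means, 5.73 with siControl and 5.26 with siChe-1, both lay below the filter level. Without the filter its changes had a limma adjusted p = 0.00991 in SKBR3 and 0.00678 in MDA-468. BSG and CD63, surface proteins linked to MMP induction and to TIMP1 binding, fell by 0.62 and 0.52 in MDA-468. MMP13, collagenase 3, was left out by the filter and was picked out after its values were seen. It went from 4.86 to 5.97 in SKBR3 and from 4.64 to 6.58 in MDA-468, and with no filter these changes had a limma adjusted p = 0.0117 and 1.83e-05. MMP2 and MMP9, the gelatinases, were also below the filter, with changes between -0.06 and 0.27.

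Among 17 tested plasmin substrates and matrix genes, 3 rose and 2 fell in SKBR3, and 11 rose and 3 fell in MDA-468. That is 29.4% and 82.4%, against 23.7% and 43.5% of all genes, with medians of 0.13 and 0.50. FN1, fibronectin, rose by 1.87 and 2.35 and CCN1, a matricellular protein, by 1.69 and 0.80. CCN2 rose by 0.52 and 1.80, TNC, tenascin C, by 2.17 and the laminin chain LAMB3 by 1.58 in MDA-468, with SKBR3 values of 0.21 for TNC and -0.03 for LAMB3 that did not pass the test. TGFB1, whose latent product plasmin can activate, fell by 0.75 in MDA-468, and TGFB2 fell by 0.88 in SKBR3 and rose by 0.45 in MDA-468. Of 15 AP-1 and NF-kappaB genes 11 rose in SKBR3 and 13 in MDA-468, with a median of 0.83 in each. That is 73.3% and 86.7%, against 6.64% and 16.4% of all genes called higher. Without the filter on dim genes 10 rose in SKBR3 and 13 in MDA-468. TNFAIP3, an inhibitor of NF-kappaB signalling, rose by 2.82 and 4.04, ATF3 by 1.84 and 3.18 and JUN, a subunit of AP-1, by 2.06 and 2.29. FOSL2 rose by 0.83 in MDA-468 and read 0.07 in SKBR3. These lists were chosen with earlier results of these data known, so their counts carry no independent weight.

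**Figure D4:**
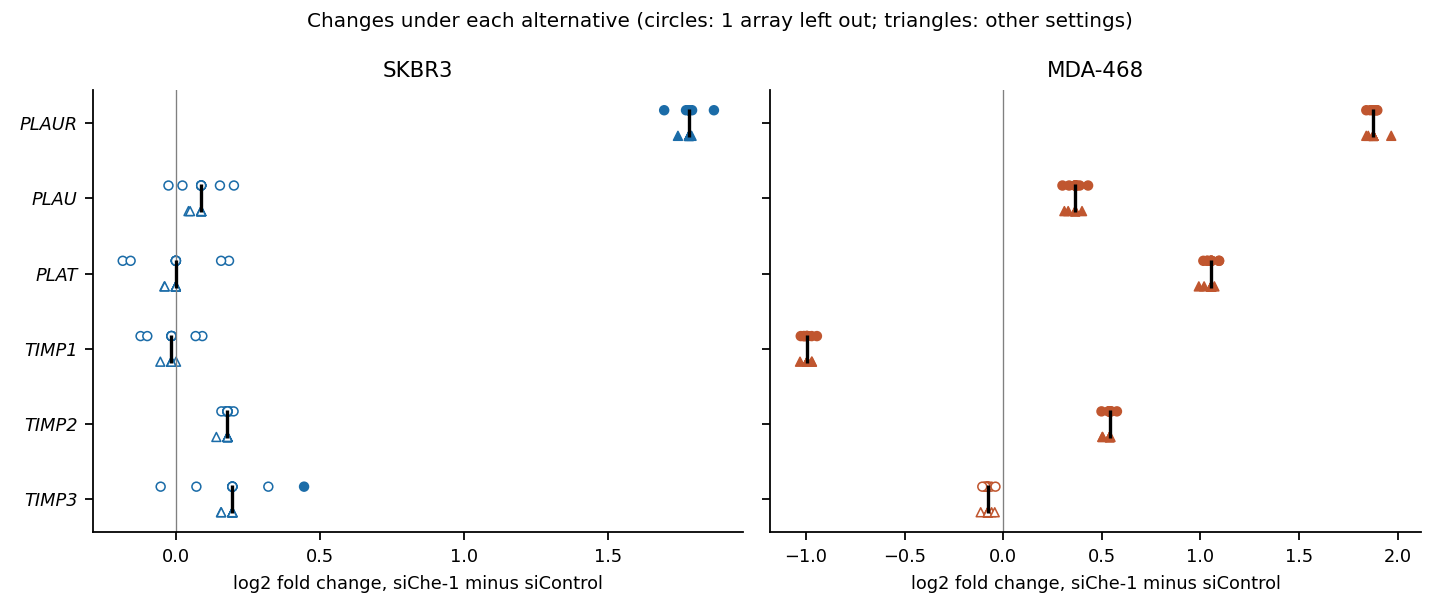
Log2 fold changes (x axis) of the 6 tested genes in SKBR3 and MDA-468 with 1 array left out (circles) and under other settings of the analysis (triangles); black bars are the values reported and filled symbols passed an adjusted p of 0.05. PLAUR ranged from 1.69 to 1.87 in SKBR3 and from 1.84 to 1.97 in MDA-468, and TIMP3 in SKBR3 passed only without siChe-1 replicate 1.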

How the data were processed

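RNA of 10 samples was measured on Affymetrix whole-transcript arrays. The deposited log2 values are RMA summaries by the authors; the submitters' processing notes name Affymetrix Expression Console. Its version, the genome build and which arrays were normalized jointly: not given in the sources used here. Of 33297 probe sets, 19460 had 1 gene symbol in the platform annotation, 1754 several and 12083 none. Symbols were updated by gene ID with RefSeq's table for 19429. The highest-mean probe set per gene was kept, and genes with a mean over all arrays below the 30th percentile (6.03) were left out.

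Group means of all arrays were fitted with limma 3.58.1 (lmFit, eBayes) in R 4.3.3, with 6 residual and 4.92 prior degrees of freedom. P-values were adjusted by Benjamini-Hochberg over 12892 genes and called at 0.05; intervals are 95%. The fit was tested on simulated data. The number of arrays limits precision, and RMA values of dim or very bright probe sets understate fold changes. The genes of the set and the lists were chosen with earlier results of these data known. List genes are named where called with an absolute log2 fold change of at least 1 in a line, at most 4 per list and line; others were named after their values were seen. For a gene called in both lines, the 3 genes with the highest r are given. Alternatives were the filter, each line alone, a replicate block, quantile normalization, median centring, an intensity trend, array weights, other probe sets and leaving out each array.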

Additional observations from a re-analysis of the deposited data

Results flagged for a closer look

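The change with siChe-1 differed between the lines, by a test of the difference itself (limma, adjusted over all genes tested, for which 19.2% of genes passed), for 3 genes of the set. SKBR3 less MDA-468, it was -1.06 for PLAT, 0.98 for TIMP1 and -0.36 for TIMP2, with adjusted p = 0.00217, 0.000716 and 0.0444. AATF itself differed by 1.05, being lowered less in SKBR3 than in MDA-468 (adjusted p = 0.000215); its part in the other differences was not tested.

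Of the related genes, the difference was -2.28 for TFPI2, -2.30 for F3, -1.52 for KLK10 and 1.10 for PLGRKT. It was -2.60 for ITGA5, -2.03 for SRPX2, -0.80 for ITGA3 and -0.88 for ITGAM among the partners of uPAR, and -1.24 for ADAMTS4. Among matrix genes it was -0.47 for FN1, 0.89 for CCN1, -1.96 for TNC, -1.28 for CCN2 and -1.61 for LAMB3. For the serpins SERPINB1 and SERPINB3 it was -1.58 and 1.40. Adjusted p-values of these related genes ran from 6.48e-07 (ITGA5) to 0.0401 (FN1). The FN1 difference lost the threshold with no filter on dim genes (adjusted p = 0.0619), as did that of TIMP2. TFPI2 and ITGAM passed the filter through their MDA-468 siChe-1 values. With no filter their differences had a limma adjusted p = 2.82e-05 and 0.0104.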

How the results depend on the processing

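PLAUR stayed past the threshold in both lines, and TIMP1 and TIMP2 in MDA-468, under all 19 alternatives, and PLAU and PLAT in MDA-468 under all 18 that included them; no change called in the reported fit turned sign. The filter at the 50th percentile left PLAU and PLAT untested, so 3 genes of the set were called in MDA-468. Leaving out single arrays gave 1 to 2 called genes of the set in SKBR3, the second being TIMP3 without siChe-1 replicate 1. The TIMP2 difference between lines lost the threshold under 14 of 18 alternatives. Genes called in SKBR3, 3057 in all, numbered 669 when it was fitted alone, 1168 with array weights and 1292 to 5370 with 1 array left out: 1292 without siControl replicate 2, 5370 without siChe-1 replicate 1 and 1768 without siChe-1 replicate 2. Genes whose change differed between lines, 2471 in all, numbered 1492 to 4047 with 1 array left out, the ends being again SKBR3 siControl replicate 2 and siChe-1 replicate 1. Where 1 array of a group remained, it was assumed to vary like the other groups. With the replicate number as a block 1249 genes were called in SKBR3 and 1104 for the difference; of the set, only the TIMP2 difference changed its call (adjusted p = 0.153). Deviations of same-numbered arrays correlated with r = -0.56 in SKBR3 and -0.49 to 0.0015 in MDA-468. With 2 arrays per group in SKBR3 the deviations mirror each other, so crossing the numbers only turns the sign of r. These values therefore cannot show whether same-numbered samples share more than a number. A block with crossed SKBR3 numbers, added after seeing the data, called 3267 genes in SKBR3, 5804 in MDA-468 and 2583 for the difference. Quantile normalization and median centring moved the median change of all genes by 0.04 at most.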
